A study of Mus musculus with 4 samples.

Results

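Tumor macrophages with the highest share of RNA from Folr2, Cbr2 and Stab1 were examined in 4 single-cell RNA libraries of CD45+ cells sorted from MC38 tumors. A cell counted as a macrophage if it had at least 500 genes, at most 10% mitochondrial UMIs, at least 1 UMI of Csf1r, at least 0.2% of its UMIs on C1qa, C1qb and C1qc together, at most 2 UMIs of the Cd3 genes and at most 1 of Ncr1 and Klrb1c. Of the 28290 barcodes, 28194 passed the filters on genes and mitochondrial UMIs and 14139 were macrophages by this rule. The 1413 members were the top 10% of these cells, pooled over the libraries, by the share of UMIs on the 3 genes. They were therefore chosen by measured values, and every contrast of members with the other 12726 macrophages is given as a description, without a test.

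MC38, a mouse colon adenocarcinoma line, was grown under the skin of C57BL/6 mice of the B-hCTLA-4 line, which carry a humanized CTLA-4, so all 4 groups share that allele. Injections began at a tumor size of about 100 mm3, and cells were taken on day 8 after 3 treatments. The isotype control group received hIgG1 at 10 mg/kg. The single antibodies were ipilimumab, a human IgG1 against human CTLA-4, at 10 mg/kg, and anti-mouse FcgRII, AT130-2 as a mIgG1-N297A antibody, at 20 mg/kg, and the combination group received both. Per the labels each group was 1 library pooled from 11 mice, all in batch 1, so treatment and library cannot be told apart and no value below carries an error between animals. The libraries held 178178393 UMIs in 8173 barcodes in isotype control, 129151823 in 6390 and 142472286 in 6097 for the single antibodies A and B, and 196362818 in 7630 in the combination. The article describes the single-cell experiment with other figures for the mice, the day, the dose and the tumor size. For both single antibody libraries the title and the treatment label contradict each other: they are called single antibody A (titled anti-human CTLA-4) and single antibody B (titled anti-mouse FcgRII), and which of them received ipilimumab is not settled here.

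FOLR2 is a folate receptor, CBR2 a carbonyl reductase and STAB1 (stabilin-1) a scavenger receptor that clears modified proteins and cell debris. High RNA levels of these genes are a known feature of macrophages that live long in healthy tissue, often beside blood vessels, and of macrophages matured in the presence of M-CSF. Such cells are known for uptake of dying cells and for low antigen presentation, in contrast to macrophages that have recently matured from Ccr2-expressing monocytes.

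The 3 genes lie on different chromosomes (GRCm38): Folr2 (ENSMUSG00000032725) at chr7:101839988-101857194, Cbr2 (ENSMUSG00000025150) at chr11:120729489-120732114 and Stab1 (ENSMUSG00000042286) at chr14:31139013-31168641, all on the minus strand. Fcrls (ENSMUSG00000015852), an Fc receptor-like gene that the rule did not use, lies at chr3:87250758-87263738 on the minus strand. Since the members share high levels of these genes, the 100 bases before each RefSeq start (GRCm38.p6) were searched on both strands for GGAA, the core of ETS factor sites, GAGGAAG, a PU.1 site that contains GGAA, and TGCTGAC, the core of MAF sites. Over 32851 such windows GGAA was present in 66.8%, GAGGAAG in 4.72% and TGCTGAC in 1.69%. The windows that hold no annotated exon of their gene are shown 5′ to 3′ with GGAA, or its reverse complement TTCC, in capitals, to show how these starts differ.
Folr2, inner start, chr7:101845332-101845431: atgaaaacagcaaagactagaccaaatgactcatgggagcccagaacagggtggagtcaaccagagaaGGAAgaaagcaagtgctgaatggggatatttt
Stab1, chr14:31168642-31168741: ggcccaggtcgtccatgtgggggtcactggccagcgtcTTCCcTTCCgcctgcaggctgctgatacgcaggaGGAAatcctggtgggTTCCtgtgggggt
The Folr2 window had 1 match and the Stab1 window 4. The window before Cbr2 held GAGGAAG, the window before the outer Folr2 start held 1 GGAA and that before Fcrls held 2. None held TGCTGAC, which says only that these letters are not in these windows.

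Members made up 7.40% of macrophages in isotype control (283 of 3825, exact binomial 95% interval 6.59 to 8.27), 9.76% in single antibody A (307 of 3146, 8.74 to 10.8), 15.7% in single antibody B (624 of 3985, 14.5 to 16.8) and 6.25% in the combination (199 of 3183, 5.44 to 7.15). All intervals cover counting error only. Single antibody B was thus highest and contributed 44.2% of all members, while the intervals of isotype control and the combination overlapped. The ratio of single antibody B to isotype control was 2.12 (1.85 to 2.42), and that of the combination to isotype control 0.845 (0.709 to 1.01). As a share of all cells passing the filters, the latter was 0.754 (0.631 to 0.901), and macrophages themselves made up 46.9%, 49.4%, 65.5% and 41.9% of those cells in isotype control, A, B and the combination.

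**Figure D1:**
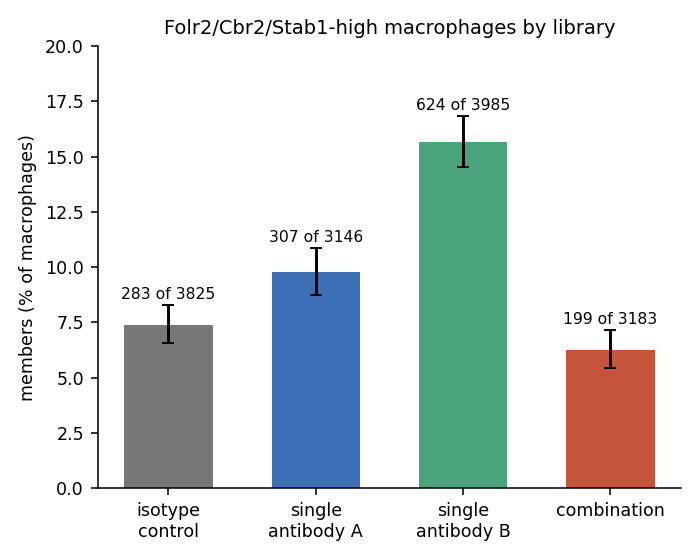
Members as a percent of macrophages in each library. Bars are shares, lines are exact binomial 95% intervals of counting error, and the numbers are members of macrophages; single antibody B stands highest at 15.7%.

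The combination to isotype control ratio of shares depended on which of the 3 genes defined the members. It was 0.687 with Folr2 left out of the score, 0.883 with Stab1 left out and 1.05 (0.892 to 1.23) with Cbr2 left out. In the members themselves Cbr2 was the leading gene of the 3 in 45.0% of cells in single antibody B, 29.0% in A, 21.9% in isotype control and 11.1% in the combination. Stab1 led in 64.3% of members of the combination and 37.5% of those in single antibody B. The makeup of the members therefore differed between libraries along with their number.

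The score left no gap at the limit that set members apart. The lowest member had 0.13178% of its UMIs on the 3 genes and the highest non-member 0.13167%. The median was 0.180% in members and 0.0291% in other macrophages, and 1399 macrophages had 0 UMIs of the 3 genes. All 3 genes were detected together in 85.5% of members, and 43 members had fewer than 10 UMIs of them. Members were deeper than other macrophages in every library, with median UMIs of 20546 against 17136 in isotype control, 27275 against 21002 in A, 26383 against 19859 in B and 28912 against 23823.5 in the combination. With macrophages drawn down to 8807 UMIs, which left out 1413 shallower ones, isotype control had 8.31% members and the combination to isotype control ratio was 0.699.

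For the label of resident-like macrophages Fcrls, the marker outside the rule, was looked up. Members and gene lists were chosen with earlier results of these data known, so its levels are a description and not an independent check. Levels are given as CPM: within a library the UMIs of all members, or of all other macrophages, were added up and each gene was scaled to a total of 1000000. They are compared between cells, not between genes. Fcrls stood at 2744, 1783, 2035 and 858 CPM in members of isotype control, A, B and the combination, and at 911, 707, 1083 and 238 CPM in other macrophages. Members were higher in each library, by 3.01, 2.52, 1.88 and 3.60 times, yet members of the combination lay below the other macrophages of isotype control and B. Csf1r, the M-CSF receptor, differed little, at 1748, 1397, 1487 and 1196 CPM in members and 1567, 1439, 1494 and 1237 CPM in others. Adgre1, which encodes F4/80, was 1.37 to 1.77 times higher and Cd68 1.36 to 1.49 times higher.

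Single defining genes of particular resident populations were then looked up. Sall1, the defining factor of microglia, and Gata6, that of large peritoneal macrophages, had 0 UMIs in members of all 4 libraries. Timd4, a phosphatidylserine receptor of many long-lived resident macrophages, had a UMI in 8 of 1413 members (0.566%, 0.245 to 1.11), against 0.385% of other macrophages and 0.165% of T cells (median 26102, 20281.5 and 5356 UMIs a cell). Drawn down to 11715 UMIs a cell, these shares were 0.384%, 0.310% and 0.711%. The T cell value came from 3 cells with 52 UMIs, and 33 of the 38 Timd4 UMIs of members lay in 4 cells of A. Ccr2, the chemokine receptor of monocytes, was still measured in members at 187, 132, 237 and 73.5 CPM. It was lower than in other macrophages, where it stood at 694, 443, 546 and 234 CPM. The marker outside the rule was thus higher in members than in other macrophages of the same library. Sall1 and Gata6 were at 0 and Timd4 was found in 8 members. The cells are called by the genes of the rule or simply members here. Of the 6 microglia markers over the limit used below 5, Fcrls among them, were higher in members in all 4 libraries. Of the 7 peritoneal markers only Fcna passed that limit.

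Of 4922 genes with at least 50 CPM in members or others of at least 1 library, 23 (0.467%) were at least 2-fold higher in members in all 4 libraries, 3 of them the genes of the rule. A further measure was direction alone: 1310 genes (26.6%) were higher and 1638 (33.3%) lower in members in all 4 libraries. At least 2-fold lower in all 4 were 56 genes (1.14%). The median ratio over all genes was 0.978, 0.985, 0.967 and 1.02 in isotype control, A, B and the combination. Because the rule used this contrast, nothing is read from these counts.

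Of the 35 resident-like genes outside the rule, 27 passed the 50 CPM limit, with medians of 2.12, 2.35, 1.76 and 2.40. Of those 23, Fcrls among them, were higher in members in all 4 libraries and 10 at least 2-fold. Most of these 10 rested on 40 members with Lyve1, described below. Without them Lyve1, Cd163, Cd209f, Ednrb and Ltc4s fell under the CPM limit, and F13a1 and Wfdc17 under 2-fold. Gas6, Igf1 and Ccl8 stayed, with lowest ratios of 3.10, 2.56 and 2.26. Gas6, the ligand that bridges dying cells to the receptors AXL and MERTK, stood at 305, 356, 207 and 153 CPM in members and 65.5, 67.5, 64.9 and 27.2 CPM in others. Its ratio was 3.19 to 5.63 and the class levels did not overlap between libraries. Of the receptors, Mertk was higher in members (1.25 to 1.42 times) while Axl was lower (0.661 to 0.743). Pros1, the other ligand of this family, was 1.53 to 2.04 times higher.

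Further resident-like genes were higher too. Igf1, insulin-like growth factor 1, stood at 73.1, 102, 90.8 and 82.8 CPM in members and 19.2, 24.5, 32.6 and 30.5 CPM in others. Mrc1, the mannose receptor CD206, stood at 1463, 1577, 973 and 954 CPM against 703, 670, 569 and 389 CPM. Selenop, the selenium carrier, was 1.62 to 2.25 times higher and Pltp, the phospholipid transfer protein, 1.99 to 2.66 times. The 4 exceptions on the same list were Txnip, at 0.858 to 1.02 times, Ccl24, at 0.219 to 1.49 times, Mgl2, at 0.271 to 1.22 times, and Marco, at 0.655 to 3.77 times.

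Among the genes with the highest ratios in all 4 libraries were also the ficolin gene Fcna (3.90 to 10.3 times), the metalloproteinase inhibitor Timp2 (2.51 to 2.89), the serpin Serpinb6a (2.33 to 2.98), Ctla2a (2.25 to 3.58), Enpp1 (2.24 to 3.27), Wfdc17 (2.37 to 4.73) and Ltc4s (2.92 to 9.11), which encodes leukotriene C4 synthase. The upper values of Fcna, Wfdc17 and Ltc4s came from A, where few cells with Lyve1, described below, carried much of the RNA: without them the ratios in A were 3.75, 2.69 and 2.81. Timp2 was even between libraries, at 887, 1005, 1009 and 952 CPM in members. Ccl8, a chemokine for monocytes and T cells, was uneven, at 224, 568, 126 and 543 CPM in members and 51.2, 139, 47.4 and 200 CPM in others. It was highest in A and the combination in both classes. Fcna had a UMI in 51.6% of members (49.0 to 54.2), 16.8% of others and 0.714% of T cells, and at a common depth of 11715 UMIs in 39.2%, 12.04% and 1.06%.

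Transcription factors differed less. Maf, a factor of mature macrophages, stood at 837, 909, 740 and 663 CPM in members and 471, 485, 473 and 372 CPM in others, 1.57 to 1.87 times higher. Klf2 was 1.43 to 2.06 times higher and the liver X receptor gene Nr1h3 1.47 to 1.86 times. Spi1, which encodes PU.1, was close to even (0.881 to 0.948). Of 15 factors over the limit, 7 were higher and 5 lower in all 4 libraries and none by 2-fold.

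Genes of antigen presentation were lower in members. All 7 class II genes over the limit were lower in all 4 libraries, 5 of them at least 2-fold. H2-Aa stood at 916, 1554, 571 and 1672 CPM in members and 4626, 5394, 2746 and 5500 CPM in others, and Ciita, the class II transactivator, was 0.217 to 0.323 times as high. Members of the combination were highest and those of single antibody B lowest. Only 7 of the 1413 members (0.495%, 0.199 to 1.02) were in the top 10% of macrophages by class II UMIs.

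The genes furthest below other macrophages in all 4 libraries included the class II gene H2-Eb1 (0.178 to 0.272), the lectin-like receptor gene Klrb1b (0.0492 to 0.140), Ifitm1 (0.0480 to 0.143), Tnfrsf9, which encodes 4-1BB (0.0295 to 0.152), Gbp2b (0.0618 to 0.165), Ly6i (0.0392 to 0.181) and Napsa (0.133 to 0.217). Klrb1b stood at 12.6, 6.20, 4.72 and 9.84 CPM in members and 90.2, 126, 57.5 and 103 CPM in others, and Slpi, Mcemp1 and Dnase1l3 completed this group.

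Inflammatory and monocyte genes were lower as well. Of 14 inflammatory genes 10 were lower in all 4 libraries, 5 at least 2-fold, and 1 was higher. Nos2, inducible nitric oxide synthase, stood at 11.0, 40.1, 25.2 and 192 CPM in members and 102, 239, 69.6 and 915 CPM in others. Il1b was 0.159 to 0.353 times as high. Among monocyte genes 5 of 8 were lower in all 4 and 1 was higher, Fn1 (1.06 to 1.34 times), which encodes fibronectin. Chil3 was lower in 3 libraries (0.114 to 0.321) and higher in A (1.52).

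All 14 interferon gamma-induced genes and all 10 type I interferon-stimulated genes over the limit were lower in members in all 4 libraries. Gbp4 was 0.241 to 0.414 times as high. Isg15, a type I interferon-stimulated gene, was 0.380 to 0.524 times as high. Lysosomal genes were on the other side: Ctsd stood at 1685, 1842, 1705 and 1511 CPM in members and 699, 716, 821 and 890 CPM in others, and Apoe was 1.61 to 1.85 times higher. Lgals3 (0.842 to 0.898) went the other way on the same list, of which 7 of 15 were higher and 2 lower in all 4.

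The remaining lists were mixed. Of 12 complement genes 8 were higher, among them C1qa, C1qb and C1qc, which the macrophage limit used (1.15 to 1.48 times), and 3 were lower, with C3 at 0.380 to 0.517 times. Of 16 chemokines 5 were higher and 7 lower, with Ccl7 at 1.62 to 2.04 and Cxcl9 at 0.251 to 0.440 times. Of 8 iron and heme genes 4 were higher and 1, the ferritin gene Fth1, lower (0.552 to 0.866). Of 14 scavenger and uptake receptors 9 were higher and 2 lower, and of 10 growth factors and regulatory cytokines 5 were higher and 3 lower, with Vegfa at 0.45 to 0.565 times. Of 11 cell cycle genes 4 were lower and none higher in all 4, near the share over all genes for lower ones, and their median ratios were 1.03, 0.738, 0.648 and 1.04 in isotype control, A, B and the combination.

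**Figure D2:**
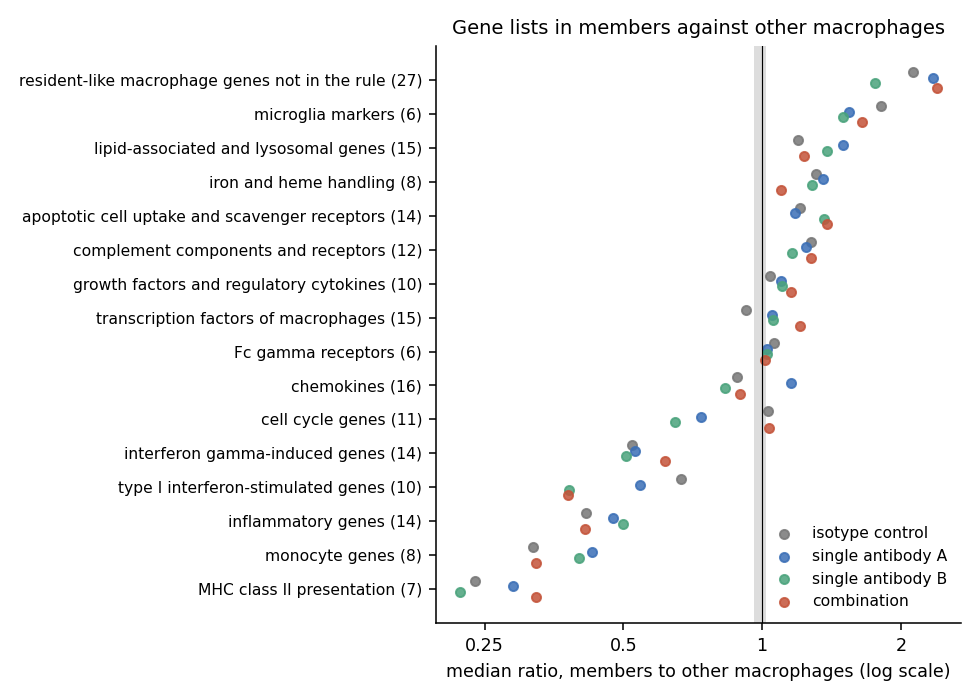
Median ratio of members to other macrophages over the genes of 16 program lists that passed 50 CPM (number in brackets), 1 dot for each library, on a log axis. The grey band spans the medians of all 4922 genes; of the lists drawn, those with at least 3 genes over the limit, the resident-like genes stand highest in every library, and the class II genes, at 0.221 to 0.323, and monocyte genes stand at the low end.

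Fc gamma receptors are the targets and partners of the antibodies used. Fcgr2b, the inhibitory receptor that anti-FcgRII binds, stood at 1394, 1391, 1341 and 1172 CPM in members and 1222, 1188, 1183 and 1098 CPM in others. It was thus 1.07 to 1.17 times higher in members. Fcgr3 was even (0.979 to 1.04), while the activating receptors Fcgr4 (0.525 to 0.767) and Fcgr1 (0.723 to 0.912) were lower. Fcgrt, which encodes the neonatal Fc receptor that recycles IgG, was 2.24 to 3.06 times higher, at 284, 359, 230 and 179 CPM in members and 110, 117, 97.3 and 79.7 CPM in others. The upper ratio came from A, where it was 2.10 without the cells with Lyve1, described below.

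Ordering all macrophages by the score showed that most of these genes varied over the whole range. From the lowest to the highest of 10 equal groups Fcrls went from 188 to 1910 CPM, Gas6 from 9.97 to 249.7 CPM, Mrc1 from 295 to 1192 CPM and Maf from 244 to 784 CPM. H2-Aa went from 7888 to 1031 CPM, Nos2 from 536 to 52.5 CPM and Ccr2 from 779 to 178 CPM. In groups 1, 2 and 3 Nos2 stood at 536, 550 and 558 CPM and did not yet fall. Fcgr2b stayed between 1131 and 1335 CPM. Median depth moved along with this order, from 11075 UMIs in the lowest group to 26102 in the highest. The makeup by library moved too: single antibody B gave 290 cells of the lowest group and 624 of the highest. Nos2 and Ccr2 were not split by library in this order. Gas6 and H2-Aa kept their directions within each library: in isotype control Gas6 stood at 12.03 CPM in the lowest group and 305 CPM in the highest, in the combination at 3.86 and 153 CPM.

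**Figure D3:**
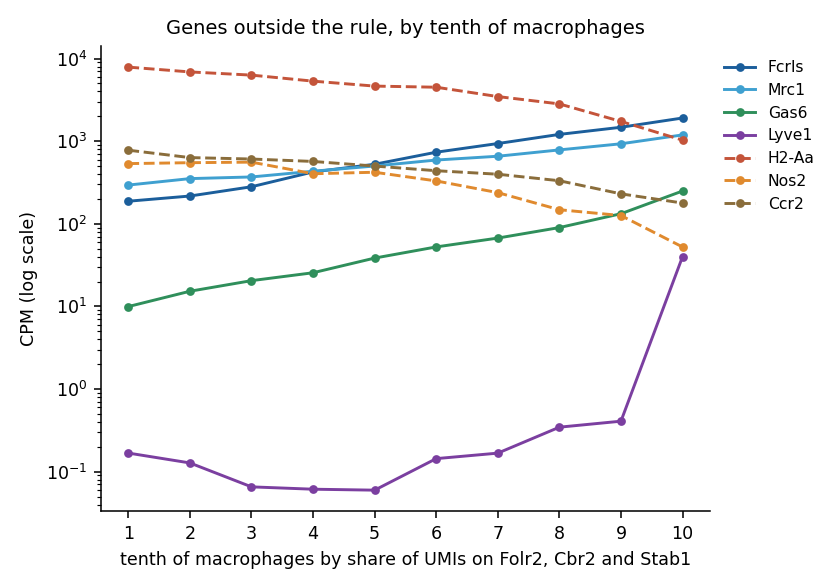
CPM (log axis) of 7 genes outside the rule in 10 equal groups of macrophages ordered by the share of UMIs on Folr2, Cbr2 and Stab1, all libraries pooled. Fcrls, Mrc1 and Gas6 climb over the whole range, and H2-Aa, Nos2 and Ccr2 (dashed) end lower than they begin. Lyve1 stays below 0.5 CPM until the last group, the members, at 40.0 CPM.

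Lyve1, the hyaluronan receptor of perivascular macrophages and lymphatic endothelium, did not follow this gradient. It stood at 33.9, 111, 12.4 and 19.2 CPM in members and at most 0.393 CPM in others, but only 54 of 1413 members (3.82%, 2.88 to 4.96) had any UMI of it, against 0.259% of other macrophages and 0.110% of T cells. At the common depth these shares were 3.17%, 0.138% and 0.232%. With a limit of 3 UMIs, set after the values were seen, 40 members remained, 4 in isotype control, 27 in A, 6 in B and 3 in the combination, beside 3 other macrophages. That is 8.79% of members in A (5.88 to 12.5) and 0.962 to 1.51% in the other libraries.

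Further genes had higher summed levels in these 40 Lyve1 cells, some of them from a minority of the cells. In A their summed level of Cd163, the haptoglobin-hemoglobin receptor, was 1245 CPM against 1.68 CPM in the other members, and in the other 3 libraries together 866 against 1.97 CPM. Cd209f, a C-type lectin, stood at 819 against 0.120 CPM in A, with 104 UMIs against 0 in the other 3 libraries. Those UMIs lay in 1 member each of isotype control, B and the combination. In A 12 of the 27 cells had a UMI of Cd209f, 11 of Cd163 and 24 of Ednrb, the endothelin receptor B, so the cells were not alike for the first pair. Folate receptor Folr2 was 4.08 and 3.79 times higher than in other members, F13a1, coagulation factor XIII subunit A, 9.60 and 7.53 times, Fcgrt 7.02 and 7.71 times, and the complement gene C4b 18.7 and 20.3 times.

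The same cells were low in Fcrls and Stab1. Fcrls stood at 492 against 1889 CPM in A and 750 against 1960 CPM in the other libraries, and Stab1 at 366 against 883 and 375 against 808 CPM. Spp1 (73.0 against 772 CPM in A), Mmp12 (7.30 against 158 CPM) and Ch25h (8.76 against 302 CPM) were lower as well. H2-Aa was higher, at 3326 against 1409 CPM in A and 1774 against 863 CPM elsewhere, and so was Ccr2, at 350 against 114 and 395 against 191 CPM. Of 36 Timd4 UMIs in members of A 33 lay in 4 of these cells. Prox1 and Ccl21a, defining genes of lymphatic endothelium, had 0 UMIs in all members, and Flt4 was at most 0.308 CPM.

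**Figure D4:**
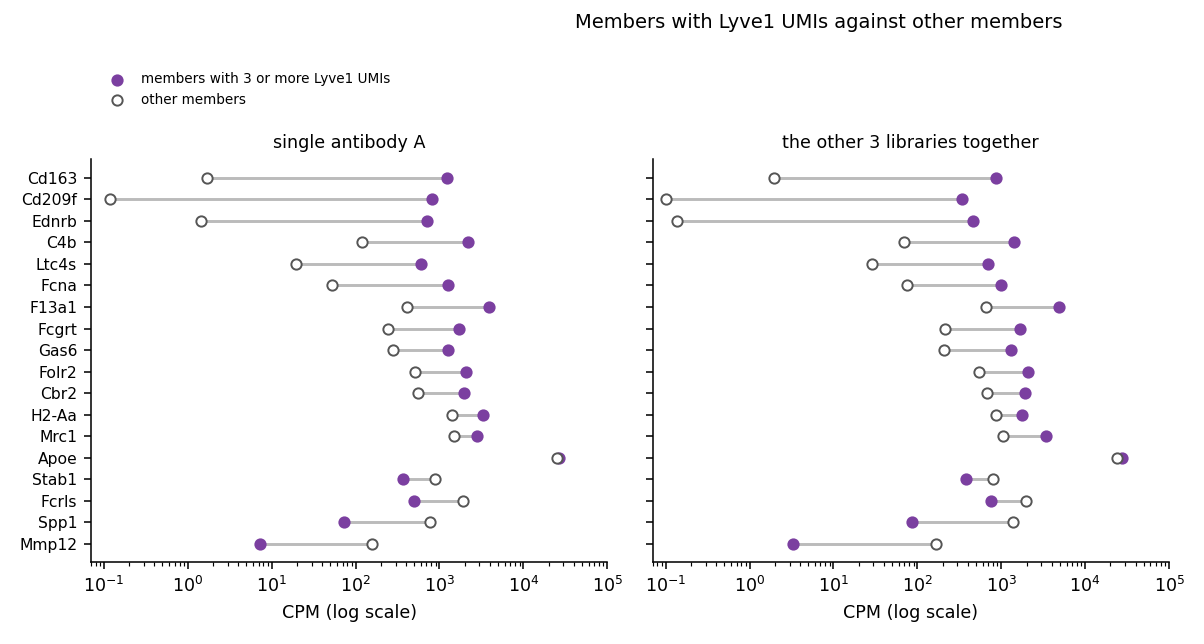
CPM (log axis) of 18 genes in members with at least 3 Lyve1 UMIs (filled) and in other members (open), in single antibody A and in the other 3 libraries together; a level of 0 is drawn at 0.1. Cd163, Cd209f and Ednrb lie near 0 outside the Lyve1 cells, whereas Fcrls, Stab1, Spp1 and Mmp12 are lower in them.

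Several results rest on these few cells. Without the 40 cells, 16 genes were at least 2-fold higher in members in all 4 libraries, 15 of them among the 23, and Cd163 had a lowest ratio of 1.52 in place of 9.46. Lyve1 (by construction), Cd163, Cd209f, Ednrb, Ltc4s and Etv1 no longer met the CPM limit, and F13a1 (1.89) and Wfdc17 (1.90) had lowest ratios under 2-fold. Of the resident-like genes at least 2-fold higher with all members, only Gas6 (3.10), Igf1 (2.56) and Ccl8 (2.26) met both limits, as their lowest ratios show. Fcna (3.67) and Timp2 (2.49), which are not on that list, also stayed above 2-fold in all 4.

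Members also differed by the leading gene of the rule, given here within each library because the libraries held unequal shares of these classes. Fcrls was highest where Stab1 led in all 4 libraries, at 3179, 1902, 2411 and 974 CPM in isotype control, A, B and the combination, against 2061, 1404, 1267 and 591 CPM where Folr2 led. Pltp was lowest where Stab1 led in all 4, at 757, 829, 998 and 799 CPM, against 1611, 2735, 2117 and 1462 CPM where Folr2 led. Lyve1 was at most 1.85 CPM where Stab1 led and between 13.5 and 381 CPM where Folr2 or Cbr2 led. H2-Aa had no such order: where Cbr2 led it was lowest in A and B, at 1190 and 398 CPM, and highest in the combination, at 2481 CPM from 22 members.

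Members shared other programs to different degrees, where 10% of all macrophages are in each by construction. Of members 2.05% (1.38 to 2.93) were in the top 10% of macrophages by Nos2, against 10.9% of others, and in the combination this was 9.05% (5.45 to 13.9) against 30.2%. By Hmox1 and Gpnmb it was 7.29% against 10.3%, by type I interferon-stimulated genes 3.89% against 10.7% and by cell cycle genes 7.57% against 10.3%. For cell cycle genes members stood at 9.54%, 6.51%, 6.89% and 8.54% in isotype control, A, B and the combination and others at 10.1%, 10.8%, 11.9% and 8.08%. In the combination the interval of members (5.06 to 13.3) included the value of others, so no order is read there. With the other programs set at the top 20%, members reached 21.5% (19.4 to 23.8) for Hmox1 and Gpnmb and 19.0% (17.0 to 21.1) for cell cycle genes, intervals that include the 20% of all macrophages, whereas class II (1.70%), Nos2 (6.23%) and type I interferon genes (10.8%) were further below.

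Between treatments, members of the combination were compared with members of isotype control, a contrast that the rule used only through the score. Of 4568 genes with at least 50 CPM in either, 47 (1.03%) were at least 2-fold higher and 28 (0.613%) at least 2-fold lower in the combination. With members set at the top 5%, 56 were higher and 68 lower, so the order of these counts depended on the limit. By direction alone, with all members, 1851 genes (40.5%) were higher and 2717 (59.5%) lower. The median ratio was 0.967 in members and 0.930 in other macrophages. Each group is 1 library, so the intervals given are of counting error and no test was possible.

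Interferon gamma-induced genes were higher in members of the combination. All 13 over the limit were higher and 8 at least 2-fold, with a median of 2.18, beside 2.01 for the same genes in other macrophages. Gbp4, a guanylate-binding protein, stood at 27.5, 60.6, 18.1 and 119 CPM in members of isotype control, A, B and the combination, and Socs1, an inhibitor of cytokine signaling, at 33.2, 52.3, 29.3 and 153 CPM. In both A lay second and B lowest. Cd274, which encodes PD-L1, was 3.10 (2.77 to 3.48) times higher. For Ciita members of the combination, at 57.1 CPM, remained below other macrophages of isotype control, at 175 CPM.

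Inflammatory genes were higher too, with 7 of 11 at least 2-fold, 10 of 11 higher and a median of 2.71. Nos2 was 17.5 (13.8 to 22.6) times higher in members and 9.01 times in others. The 10 members with the most UMIs carried 74.6% of Nos2 UMIs in isotype control and 55.8% in the combination, and without them the levels were 3.28 and 104 CPM. Acod1, the itaconate-producing enzyme, was 4.89 (4.46 to 5.37) times higher and Cxcl9, a T cell chemokine, 3.51 (3.32 to 3.70) times. Ptgs2 was the exception at 0.741 (0.568 to 0.965), and stood at 1.47 without the 10 cells with most UMIs in each library. Of 15 chemokines 12 were higher, 6 at least 2-fold, and all 7 class II genes were higher, with a median of 1.66 beside 1.19 in others. Among class II genes 1 reached 2-fold, Cd74 at 2.09 (2.06 to 2.13).

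Further genes with the largest ratios that also stood at least 1.5-fold above both single antibody libraries were Slamf8 (5.93), Serpina3g (5.20, and 14.5 without the 10 members with most UMIs in each library), the fatty acid transporter Cd36 (4.86) and the lipoprotein lipase gene Lpl (4.61). Cd36 stood at 75.9, 138, 133 and 368 CPM in members and was 4.29 times higher in others too, so that members and others differed little within each library (0.896 to 1.11). Retnla, a gene of alternative activation, stood at 18.97, 370, 116 and 598 CPM and Marco, a scavenger receptor, at 4.32, 3.54, 17.8 and 74.8 CPM. Much of the Retnla RNA lay in the Lyve1 cells described above. Retnla stood in them at 2759 CPM in A and 17907 CPM in the other libraries together, against 174 and 10.8 CPM in other members. Of Retnla UMIs 99.8% and of Marco UMIs 97.8% in members of the combination lay in 10 cells, and without these Retnla stood at 1.41 CPM and Marco at 2.01 CPM.

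Genes lower in members of the combination included the heat shock genes Hspa1a and Hspa1b and microglia markers. Hspa1b stood at 450, 198, 305 and 56.3 CPM in members and was 0.125 (0.112 to 0.140) times as high in the combination as in isotype control, with 0.183 in other macrophages. Without the 10 members with most UMIs in each library it was 0.0392. Of the 6 microglia markers over the limit all were lower in the combination and 4 at least 2-fold, with medians of 0.437 in members and 0.434 in others. Fcrls was 0.313 (0.303 to 0.322), Gpr34 0.236 (0.199 to 0.279) and Tmem119 0.416 (0.382 to 0.452) times as high. Gpr34, a lysophospholipid receptor, stood at 120, 89.4, 92.6 and 28.4 CPM, with the combination below all other libraries.

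Other genes with the smallest ratios were the transporter gene Slco2b1 (0.211), Tmem176a (0.178), Tmem176b (0.274) and Pxdc1 (0.273). Without the 10 members with most UMIs in each library Tmem176a stood at 0.107, Tmem176b at 0.177 and Ighm at 0.0623. Ednrb (0.244) was under the 50 CPM limit in members of both libraries. It rested on 61 UMIs in 5 members of isotype control and 14 UMIs in 4 members of the combination. Ighm (0.128), an immunoglobulin gene, stood at 79.1, 57.2, 21.4 and 10.2 CPM. Of 20 resident-like genes 13 were lower and 7 higher, near the shares over all genes, and 2 were at least 2-fold in each direction. Gas6 was 0.502 (0.464 to 0.543), F13a1 0.402 (0.381 to 0.425) and Mrc1 0.652 (0.631 to 0.674) times as high, whereas Pltp (1.02) was near even and Ccl8 was 2.42 (2.28 to 2.58) times higher. Without the 10 members with most UMIs Ccl8 stood 4.14 times higher.

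The genes with the largest quotient of the ratio in members over that in others were Lpl (2.69), Retnla (2.58), Spp1 (2.02), Nos2 (1.94) and Marco (1.90). Those with the smallest were Rsad2 (0.188), Ighm (0.356), Cd38 (0.380), Slc13a3 (0.409) and Ccl5 (0.45). Without the 10 members with most UMIs in each library the ratio in members was 2.58 for Retnla and 3.68 for Marco, with 0 CPM left in isotype control. Their large quotients thus rest on few members. For Lpl the ratio was then 4.27 and for Nos2 31.7. Cd38, an NAD-degrading enzyme, stood at 68.2, 102, 85.9 and 107 CPM in members, and was 1.57 times higher in the combination in members and 4.12 times in others. Ccl5 stood at 104, 113, 82.0 and 224 CPM in members and at 311, 529, 213 and 1492 CPM in others. Its ratio in members was 2.16, and 4.36 without the 10 cells with most UMIs. In other macrophages, from which no cells were left out, the ratio was 4.80. The values 4.36 and 4.80 are thus unlike measures, and whether the small quotient rests on few members was not tested. Type I interferon-stimulated genes had a median of 1.12 in members and 1.39 in others, with 2 of 6 at least 2-fold lower in members.

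**Figure D5:**
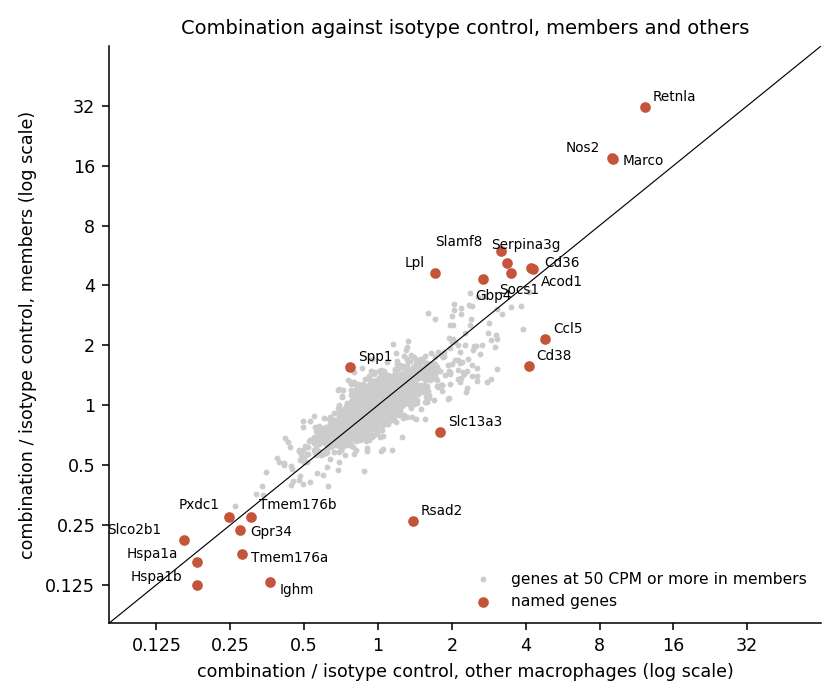
Ratio of combination to isotype control in members against that in other macrophages, both on log axes, for genes with at least 50 CPM in members of either library. Grey points are all these genes, red points the named ones, and the line marks equal ratios. With all cells included, Retnla, Nos2 and Marco lie above it at the top, and Rsad2, Cd38 and Ccl5 below it. Without the 10 members with most UMIs in each library, ratios in members were 2.58 for Retnla, 3.68 for Marco and 4.36 for Ccl5.

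Markers of other cells were summed in members and in other macrophages. Summed over 9 T cell genes members had 14.3, 26.2, 8.39 and 14.1 CPM and others 15.3, 10.9, 7.67 and 12.8 CPM, with Cd4, which macrophages can also carry, the most abundant. The 7 NK cell genes summed to 3.26 to 11.2 CPM, the 5 B cell genes to 18.4 to 28.5 CPM (mostly Cd79b), the 6 neutrophil genes to 102 to 127 CPM (mostly Csf3r) and the 8 dendritic cell genes to 10.3 to 17.2 CPM. The 7 fibroblast genes summed to 4.76 to 17.6 CPM, led by Col3a1, and the 7 blood endothelial genes to 35.9 to 53.5 CPM, led by Pecam1. The 5 lymphatic endothelial genes summed to 460 to 663 CPM, 91.9% of it from Pdpn, and the 6 epithelial genes to 27.1 to 40.6 CPM, led by Cdh1. The lymphatic endothelial sum was 1.20 to 1.84 times that of others. The fibroblast sum was 1.58 times that of others in isotype control and 0.114 to 0.654 times in the other libraries. The NK, B, neutrophil, dendritic, blood endothelial and epithelial sums were lower in members than in others in every library. The 5 mast cell genes summed to 42.0 CPM in members of single antibody B and to at most 2.01 CPM in members of the other libraries. In other macrophages they summed to 34.1, 2.31, 9.94 and 19.0 CPM in isotype control, A, B and the combination. Of 609 UMIs of Cpa3, Tpsb2 and Mcpt4 in members of B, 604 lay in 1 member. The part of these cells in the results was not tested.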

How the data were processed

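Live CD45+ cells were sorted after a density gradient, fixed and profiled with Chromium Flex, in which pairs of probes are ligated on each RNA, so that levels of different genes depend on their probes. The deposited matrices hold whole-number UMI counts for 19059 genes, made by the authors with Cell Ranger (7.2.0 per the file headers, 7.0.0 per the submitters' processing notes, build mm10) and not normalized. All 4 matrices were mapped to their samples and 0 columns stayed unmapped. No full barcode was shared between libraries; the droplet part of the barcodes was shared by 712 to 1148 cells of each pair of libraries, and 499 members (35.3%) and 33.2% of other macrophages had a droplet part that was also a cell of another library.

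Cells with at least 500 genes and at most 10% mitochondrial UMIs were kept. UMIs were summed over members and over other macrophages of each library and scaled to CPM. Genes with at least 50 CPM on the higher side in at least 1 library were compared, and a side under 3 UMIs was set to 3. Ratios have exact conditional 95% intervals and shares exact binomial ones (Clopper-Pearson), which cover counting error only. With 1 library a group no test was run. Scrublet (in scanpy) marked 1, 3, 1 and 2 cells as doublets by its automatic limit and so did not work. Cells were kept, and leaving out the top 5% by its score was an alternative. For shares of cells with a UMI, cells were drawn down to 11715 UMIs, which left out 142 members, 2445 other macrophages and 1431 of 1822 T cells (at least 3 Cd3 UMIs).

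The members and the 28 gene lists (18 of programs and 10 of other cells, 316 genes with 307 measured) were chosen with earlier results of these data known. Results of some genes and of 1 program list are not reported here. Named genes were those of the lists, the 15 highest and 10 lowest by their least extreme ratio of members to others over the 4 libraries, the 10 largest and 10 smallest combination to isotype control ratios at least 1.5-fold beyond each other library, and the 5 largest and smallest quotients of that ratio in members over others. Promoter windows and gene positions came from RefSeq and GENCODE tables of GRCm38. Scripts were tested on simulated data. Python 3.11.15, numpy 2.4.6, scipy 1.17.1, pandas 2.3.3, scanpy 1.11.5 and matplotlib 3.10.9 were used.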

Additional observations from a re-analysis of the deposited data

Results flagged for a closer look

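For 3 genes the combination to isotype control ratio lay on opposite sides of 1 in members and in other macrophages, by a quotient of at least 2-fold. With 1 library a group this difference was not tested. Rsad2, which encodes the antiviral protein viperin, stood at 96.7 CPM in members of isotype control and 25.3 CPM in members of the combination, a ratio of 0.261, whereas other macrophages had a ratio of 1.39. In isotype control 72.2% of its UMIs in members lay in 10 cells, and the ratio without the 10 cells with most UMIs was 0.362. Slc13a3, a transporter gene, had a ratio of 0.730 in members and 1.79 in others. Spp1, which encodes osteopontin, had a ratio of 1.56 in members, 1.30 without the 10 cells with most UMIs, and 0.771 in others.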

How the results depend on the processing

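No paired analysis was possible because each group holds 1 library, and for the same reason no replicate could be left out. Of 133 alternative values 87 stayed within 1.5 times a count or within the counting interval of a share or ratio, 44 moved further and 2 turned direction. The margin for counts is far wider than that for a ratio of many UMIs, so these numbers do not measure stability. The share of members in isotype control was 8.31% with cells drawn down to 8807 UMIs, where the combination to isotype control ratio of shares was 0.699 (1413 shallower macrophages were left out). With members set at the top 5% the shares in isotype control, A, B and the combination were 3.63%, 4.48%, 8.38% and 2.89%, and at the top 20% they were 15.8%, 19.0%, 29.3% and 14.3%. Without Folr2 in the score the ratio of shares was 0.687. Without Cbr2 it turned to 1.05, with 13.5% members in B and 8.11% in the combination, and without Stab1 B had 17.4%. Counts of genes at least 2-fold higher in members were 39 at the top 5%, 52 with a limit of 10 CPM and 11 with 200 CPM, beside 23, and counts of genes at least 2-fold lower were 105 and 20, beside 56. Genes at least 2-fold higher in the combination numbered 101 and 26 with these limits, beside 47, and lower 73 and 8, beside 28. At the top 5% 56 were higher and 68 lower, so that more genes were lower than higher. The lowest of the 4 ratios of Fcrls was 1.84 at the top 5%, 1.85 without high Scrublet scores, 1.92 with the top 10% taken within each library, 2.03 as a mean over cells and 1.93 with median-of-ratios scaling, beside 1.88. That of Mrc1 was 1.68 without high Scrublet scores, 1.86 as a mean over cells and 1.76 with median-of-ratios scaling. At the top 5% Lyve1 had 175 and Cd163 20.9. As means over cells Lyve1 had 50.3, Cd163 21.3, Pf4 1.54 and Gas6 3.55. With the other programs set at the top 20%, 6.23% of members were also high in Nos2, 21.5% in Hmox1 and Gpnmb, 1.70% in class II, 10.8% in type I interferon genes and 19.0% in cell cycle genes, beside 20% of all macrophages. After the data were seen, 3 alternatives were added. Without the 40 Lyve1 cells the lowest ratio of Lyve1 was 0.915, by construction, and that of Cd163 1.52. With isotype control and the combination alone, 34 genes were at least 2-fold higher and 81 lower in members, of which 16 and 55 were shared with the sets from all 4 libraries. Without the 10 members with most UMIs of each gene, 45 genes were higher and 32 lower in the combination, 38 and 25 of them shared. Where no cause is given, it was not tested. Each group is 1 library of pooled mice, so variation between animals is unknown, and genes carried by few cells are the least certain.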
